A study of Mus musculus with 4 samples.

Results

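N6-methyladenosine (m6A) peaks at the beginning of mouse brain mRNAs were examined in 2 m6A immunoprecipitation (IP) replicates. A peak is a stretch of the genome in which RNA bound by an anti-m6A antibody was enriched over input, the same RNA without IP. Where peaks of both replicates overlapped, the bases they have in common form a shared interval. Its midpoint was placed on 1 spliced mRNA per protein-coding gene, chosen for its coding sequence (CDS), which is the longest of the gene. The intervals described here are those with the midpoint in the first 200 nt of the mRNA and more than 200 nt from the stop codon. There were 1738 of them in 1617 genes, out of 23901 shared intervals and 19746 that could be placed on an mRNA. The membership thus rests on position alone and not on the enrichment values. The 18008 other placed intervals serve as the comparison.

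The series holds 4 samples, 2 of m6A IP and 2 of input, from whole brain of 4-week-old mice. By the labels the strain was C57BL/6J, and the design text of the series gives Prrc2a flox/flox mice, animals in which the gene of the candidate m6A-binding protein Prrc2a is flanked by recombination sites. No group carried another treatment or genotype, so the only comparison between samples is between the replicates. Nothing in the sources used here says how many animals stand behind a replicate, and 2 samples of 1 group allow no test between samples. Of 20 marker genes of brain cells 18 had a shared interval, among them Snap25, Map2, Gfap and Mbp, and of 20 marker genes of other tissues 2 did, Myh6 and Tnnt2.

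m6A is written by a methyltransferase complex built around Mettl3 and Mettl14, which prefers adenosine in the sequence context DRACH. This stands for A, G or T, then A or G, then AC, then A, C or T. GGACT is its best known form, and GGAC belongs to DRACH only where the next base is not G. In mammalian mRNA the mark lies mostly near stop codons and in long internal exons, and a smaller group of sites lies in 5′ UTRs, where m6A has been linked to the start of translation. Antibodies against m6A also bind m6Am, the methylated and 2′-O-methylated adenosine that can stand next to the cap, so that an antibody peak at an mRNA start cannot tell the marks apart.

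The sequences that follow show the first GGAC inside intervals of 2 kinds. The first 6 belong to members chosen for the highest value in their weaker replicate, of which those without GGAC and Pcdhb20 are not shown, and the last 4 to genes named in the study and to Sirt2, a gene with several such intervals. They are printed in the direction of the mRNA, 5′ to 3′, with T for U, and capitals mark the GGAC. The windows were read from mouse build mm10 (GRCm38) at chr2:51149076-51149105 (minus strand) for Rnd3, chr11:80142093-80142122 (minus) for Tefm, chr1:160906419-160906448 (plus) for Rc3h1, chr3:108840428-108840457 (minus) for Stxbp3, chr13:104228792-104228821 (minus) for Ppwd1 and chr9:58823414-58823443 (plus) for Hcn4. Those of the other genes lie at chr15:79164338-79164367 (minus) for Sox10, chr16:91225490-91225519 (plus) for Olig2, chr17:35164740-35164769 (minus) for Prrc2a and chr7:28771811-28771838 (plus) for Sirt2. The windows of Tefm, Stxbp3 and Sirt2 have their GGAC in the CDS and the other 7 in the 5′ UTR. In Rnd3 and Stxbp3 the base after the motif completes GGACT, and in the other windows shown it does not. In Rc3h1, Ppwd1 and Hcn4 that base is G, so the GGAC in capitals is not part of DRACH.
Rnd3: accgatcggaattGGACttgggaagagagg
Tefm: gcgatggcttggaGGACaaaccttgcttgc
Rc3h1: aggaagaggaaggGGACgaggacaacgagc
Stxbp3: ggtatcggagcggGGACtgaagagcgtcgt
Ppwd1: cttctaacgcctcGGACgacatggcgaccg
Hcn4: gtgaggcagcgaaGGACgcgtcctcactgg
Sox10: ccagccccgagctGGACcgcacaccttggg
Olig2: ccgccccccgcccGGACcaccgccaccgcc
Prrc2a: gagcccgggtcccGGACccccacgcacccg
Sirt2: gattcagactcGGACactgagggaggag
A match shows that the letters are present and not that the adenosine is methylated, since peaks do not resolve single bases.

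Shared m6A intervals were denser at nt 51 to 200 of mRNAs than farther along the first 2000 nt. Midpoints in the first 200 nt made up 8.80% of the placed intervals (95% Wilson interval 8.41 to 9.21), and 17.7% of the 9129 genes with any placed interval had at least 1 there. Counted in bins of 50 nt, there were 1.74 midpoints per 100 mRNAs at nt 1 to 50, 5.56 at nt 51 to 100, 7.02 at nt 101 to 150 and 4.77 at nt 151 to 200. Beyond the window the density was 3.49 at nt 201 to 250 and 3.39 at nt 251 to 300. The maximum thus lay at nt 101 to 150 and not at the first bases. The shortest peak in both lists was 200 nt, while the shared intervals counted here can be shorter and can begin upstream of the mRNA. Whether peak length had a part in the shape of the profile was not tested. Wilson intervals here cover counting error over intervals, which are not replicates.

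**Figure D1:**
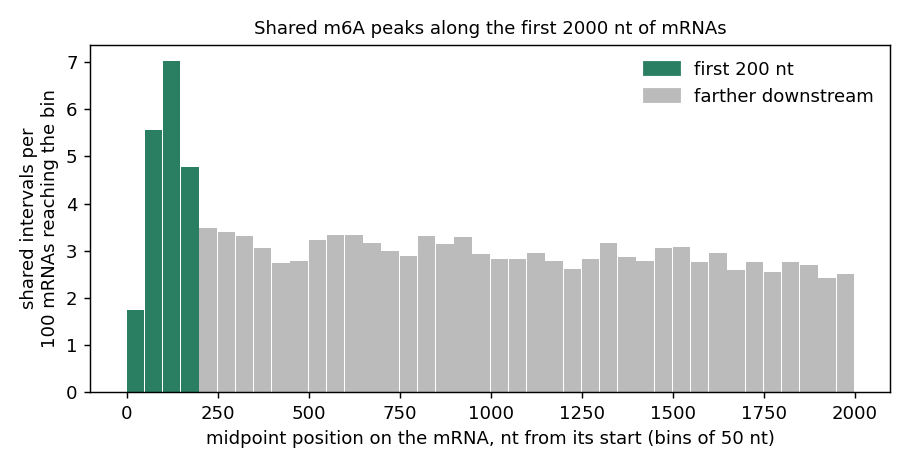
Midpoints of shared m6A intervals in bins of 50 nt from the mRNA start (x axis), as intervals per 100 mRNAs that have a placed interval and reach the bin more than 200 nt from their stop codon (y axis). Green bars are the first 200 nt, with the highest at 7.02, and grey bars the following positions, the first of which stands at 3.49.

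Most of the 1738 intervals lay in the first exon, as the rule makes likely, since it takes only the first 200 nt of the mRNA. How much of the first 200 nt of all mRNAs is exon 1 or 5′ UTR was not counted. The shares below are therefore a description of where the members lie. The midpoint was in exon 1 in 1510 (86.9%), in exon 2 in 210 (12.1%) and in exon 3 or later in 18. It fell into the 5′ UTR in 1120 (64.4%, 62.2 to 66.7) and into the CDS in 618 (35.6%). The start codon itself was covered by 878 intervals (50.5%, 48.2 to 52.9). A midpoint in the CDS here means an annotated 5′ UTR below 200 nt on the mRNA used, since the whole window is 200 nt. On some of these mRNAs, such as that of Ankrd45, no 5′ UTR is annotated. The member genes had a median 5′ UTR of 158 nt (quartiles 84 and 279) and a first exon of 202 nt, against 208 nt and 262 nt for the 7512 other genes with placed intervals. Over all 21511 mRNAs the medians were 154 nt and 220 nt.

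Many of the peaks ran past the annotated mRNA start. The interval reached upstream of it in 1045 of the 1738 (60.1%, 57.8 to 62.4). The peak of replicate 1 began a median 49 nt upstream and that of replicate 2 a median 20 nt upstream. In 556 members (32.0%) most bases of the interval lay outside the exons of the mRNA, either upstream or in the adjoining intron. Median fold enrichment in intervals reaching upstream was 2.56 in replicate 1 and 2.11 in replicate 2, against 2.37 and 1.89 in the 693 that began within the mRNA. The former were also longer, with a median of 315 nt against 253 nt. Whether start sites upstream of the annotated ones, the extension of reads by the peak caller or unspliced RNA had a part in this was not tested. For 1386 members the RefSeq annotation held a start of the same gene symbol. In 1023 of these intervals (73.8%), from 953 genes, it lay within 50 nt of the one used. The share was 69.1% of 5871 other genes, counted over genes and not over intervals. In 1597 members (91.9%) the midpoint lay in the first 200 nt of every coding transcript that contains it.

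Median fold enrichment was lower at mRNA starts than elsewhere on mRNAs in both replicates, though not at matched exonic length in replicate 1, as given with the length classes. The fold enrichment is the linear ratio of IP over input that the peak caller gave to a peak. In replicate 1 it ranged from 1.12 to 11.1 over the 1738 intervals, with a median of 2.49 (quartiles 1.94 and 3.22), against 3.10 (2.28 and 4.20) for the other placed intervals. In replicate 2 it ranged from 1.07 to 8.56, with a median of 2.02 (1.68 and 2.45), against 2.35 (1.89 and 2.93). The quartile ranges overlapped widely. Both replicates reached a fold enrichment of 2 or more in 758 members (43.6%, 41.3 to 46.0) and in 62.5% of all placed intervals. The 4534 intervals within 200 nt of stop codons had medians of 3.29 and 2.51, and 71.8% of them reached 2 in both. Along the mRNA the median of replicate 1 was 2.42 at nt 1 to 50, 2.48 at nt 151 to 200, 2.59 at nt 201 to 400 and 3.25 at nt 801 to 1000. Low values were therefore not particular to the first 200 nt but extended well beyond them. At the edge of the window, 3 of the 5 intervals with a midpoint at nt 200 (Ncoa5, Ccdc149 and Pianp) had fold enrichments of 1.88, 2.89 and 1.38 in replicate 1, and 3 of the 8 with a midpoint at nt 201 (Rims1, Csnk1d and Cdc42bpg) of 1.51, 3.49 and 3.88.

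**Figure D2:**
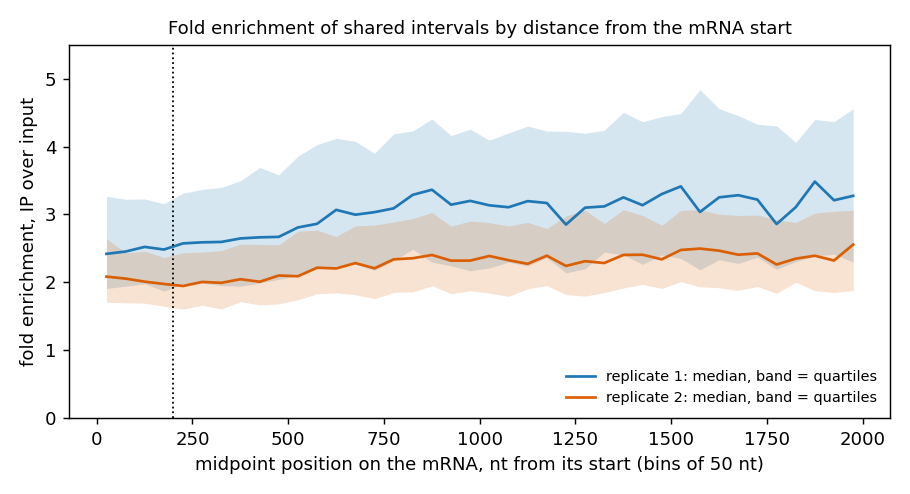
Fold enrichment of shared intervals (y axis) against the position of the midpoint in bins of 50 nt (x axis), with the median as a line and the quartiles as a band for each replicate. The dotted line is at 200 nt, and the median of replicate 1 rises from 2.42 in the first bin to 3.29 at nt 801 to 850, with later bins between 2.85 and 3.48.

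Length and base composition moved with the difference. The intervals at mRNA starts had a median of 297 nt in the genome against 344.5 nt for the others, and 183.5 nt against 291 nt once introns and upstream sequence were removed. Among intervals below 250 nt in the genome, the medians of replicate 1 were 2.27 for the 588 members and 2.31 for the others, and those of replicate 2 were 1.85 and 2.01. From 300 to below 350 nt they were 2.44 and 2.67 in replicate 1 and 2.00 and 2.08 in replicate 2. At 400 nt or more only 75 members were left, with 3.36 against 4.09 in replicate 1 and 2.23 against 2.78 in replicate 2. The members were lower in all 5 length classes in replicate 1 and in 4 of 5 in replicate 2, the exception being the class from 350 to below 400 nt with 2.34 against 2.28. By the length within exons the order in replicate 1 was turned, with members slightly above the others in all 4 classes. Below 150 exonic nt its medians were 2.36 for members and 2.30 for the others, from 150 to below 250 nt 2.44 and 2.39, from 250 to below 400 nt 3.24 and 3.19, and at 400 nt or more, with 19 members, 4.33 and 4.14. In replicate 2 members were higher below 150 nt, with 2.03 against 1.77, and lower in the other classes, with 1.95 against 1.99, 2.28 against 2.50 and 2.41 against 2.80. The direction of the difference thus depended on how length was counted. The members had a median GC content of 67.7% against 53.2%. Among intervals with 60 to 70% GC the medians were 2.42 against 2.88 in replicate 1 and 2.06 against 2.19 in replicate 2. The part of length or base composition in the difference was not tested.

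**Figure D3:**
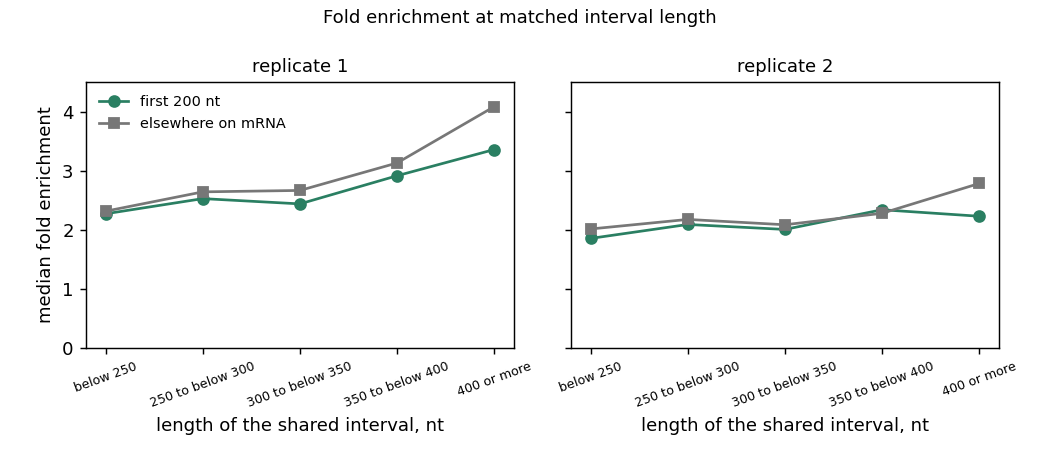
Median fold enrichment (y axis) in classes of the genomic length of the shared interval (x axis, nt), for intervals in the first 200 nt of mRNAs (green circles) and elsewhere (grey squares), in each replicate. In replicate 1 the green points lie below the grey ones in every class, by 2.27 against 2.31 in the shortest and 3.36 against 4.09 in the longest class.

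The replicates ranked these intervals less alike than the others. Spearman's rho of fold enrichment between the replicates was 0.45 over the 1738 members and 0.62 over the other placed intervals, as a description across intervals that come from the same pair of libraries. Of the 174 members with the highest values in replicate 1, 53 (30.5%) were also among the 174 highest of replicate 2. Replicate 1 gave the larger ratio in most intervals. The median log2 ratio of replicate 2 over replicate 1 was -0.28 for members and -0.39 for the others, a difference of 0.11. Replicate 2 was the higher one in 500 members (28.8%, 26.7 to 30.9), against 21.5% of all placed intervals. This share was also higher in short intervals. It was 33.2% for members and 34.0% for the others below 250 nt, and 24.3% and 16.0% from 350 to below 400 nt. Peaks at mRNA starts were found by the other replicate less often too. By their own midpoints, 2739 peaks of replicate 1 lay in the first 200 nt, and 62.8% of them (61.0 to 64.6) overlapped a peak of replicate 2, against 70.3% of its peaks elsewhere on mRNAs. For the 2265 such peaks of replicate 2 the share was 72.2% (70.3 to 74.0), against 78.0%.

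Within single genes the interval at the start was more often the weaker one. Of the 1617 genes, 404 had no other placed interval and 1213 had. Where a gene had more than 1 interval at the start, their median was taken as its value at the start. In those 1213 genes the value at the start exceeded the median of the other intervals of the gene in 37.4% (34.7 to 40.2) in replicate 1 and in 40.6% (37.9 to 43.4) in replicate 2. Replicate 1 gave a median log2 difference of -0.22, with quartiles of -0.69 and 0.25. Replicate 2 gave -0.10, with quartiles of -0.45 and 0.21. The value at the start exceeded all other intervals of the gene in 26.9% and 30.3%. The share to be expected from the number of intervals per gene was not computed. Both sides of this comparison belong to the same gene, though its transcripts need not all contain the first 200 nt of the mRNA used. Exonic length, by which the order in replicate 1 was turned over all intervals, was not matched here. An interval within 200 nt of the stop codon was present in 48.7% (45.9 to 51.5) of these 1213 genes and in 50.0% (48.9 to 51.1) of the 7512 genes with placed intervals outside the start alone, a difference within the Wilson intervals.

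The GGAC motif was present in 1166 of the 1738 intervals (67.1%, 64.8 to 69.3), against 76.7% of all placed intervals and 77.7% of those elsewhere. GGACT was found in 369 (21.2%) against 41.1%. The search for both motifs covered the exonic bases in the direction of the mRNA, so that each GGACT also counts as a GGAC. GGAC was counted whatever base followed, so a match followed by G is counted although it is not DRACH. Since the intervals at mRNA starts held fewer exonic bases, the density of GGAC was compared as well. It was 6.82 per kb in members and 6.01 per kb elsewhere, so that per base the order was turned. By classes of exonic length, GGAC was found in 49.7% of members and 39.7% of the others below 150 nt, in 73.2% and 66.7% from 150 to below 250 nt, in 86.8% and 85.2% from 250 to below 400 nt, and in 94.7% and 95.9% above. The density of GGACT was 1.40 and 1.63 per kb. Relative to the number expected from the base composition of the same intervals, GGAC occurred 0.97 times in members, 1.25 times elsewhere and 1.39 times near stop codons, and GGACT 1.56, 1.76 and 1.94 times. In a window of 100 nt around the midpoint 50.3% of members and 46.6% of the others had GGAC, while 12.6% and 16.1% had GGACT and 75.2% and 89.9% any DRACH. Members with GGAC had median fold enrichments of 2.54 and 2.03 in replicates 1 and 2 and the 572 without it 2.37 and 2.00.

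Genes with and without an interval at the start also differed in the sequence of the first 200 nt, whichever part of it the peak covered. GGAC was present there in 72.7% of the member genes (70.5 to 74.8) and in 64.3% (63.2 to 65.4) of the other genes with placed intervals, compared with 62.7% of all mRNAs of that length. The GC content was 66.0% and 64.5% at the median, and 58.5% over all mRNAs. Within classes of GC content the shares with GGAC were 57.6% and 50.7% under 50% GC, 68.7% and 64.5% at 50 to 60%, 73.7% and 67.4% at 60 to 70%, and 76.2% and 64.5% above. The member genes were thus higher in all 4 classes, with Wilson intervals that overlapped in the 2 classes of lower GC. For GGACT the shares were 22.3% and 20.3%, and 22.0% over all mRNAs. The first annotated base, which would carry m6Am if it is an adenosine next to the cap, was A in 27.3% (25.2 to 29.5) of member genes, in 26.0% (25.0 to 27.0) of the other genes and in 32.3% of all mRNAs. It was G in 47.5%, 46.3% and 39.0%. The ratio of observed over expected CpG was 0.84 and 0.80 at the median, and 0.61 over all mRNAs.

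The 12 members whose weaker replicate was highest included genes of several functions. Pum3, a Pumilio-family RNA-binding protein, came first with 7.63 in replicate 1 and 5.91 in replicate 2. Its midpoint lay at nt 13, and 34 of the 356 nt of the interval were exonic, the rest lying upstream of the annotated start or in the first intron. Pcdhb20, a clustered protocadherin encoded in a single exon, had 8.24 and 5.39 with the midpoint at nt 144. Its peak in replicate 1 was 1061 nt long and reached far beyond the 391 nt of the shared interval. Where in that peak the value of 8.24 arose is unknown. Rnd3, a small GTPase, followed with 6.94 and 5.18, and its midpoint lay at nt 76 of the 5′ UTR. Ganab, the catalytic subunit of the glycan-trimming glucosidase II, had 5.14 and 5.43 and was one of the 2 in this group with the higher value in replicate 2. The other was Zfp827, a zinc finger protein, with 4.26 and 5.05. Tefm, which helps the mitochondrial RNA polymerase elongate, had nearly the same value in each replicate with 5.10 and 5.03. So had Stxbp3, a syntaxin-binding protein of the Munc18 family, with 4.58 and 4.51.

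The remaining 5 of these strong intervals were higher in replicate 1. Ankfy1, an endosomal effector of Rab5, reached 6.33 and 4.87. Rc3h1, the roquin protein that promotes decay of mRNAs with certain stem-loops, reached 5.55 and 4.54 with 6 copies of GGAC in the interval. This was the only placed interval of Rc3h1, whereas the other strong genes had between 2 and 5. Pds5b, a regulator of cohesin, had 6.27 and 4.46. Ppwd1, a peptidyl-prolyl isomerase, had 5.97 and 4.31. Hcn4, a cation channel opened by hyperpolarisation, had 4.43 and 4.13 with 4 copies of GGAC. In all 12 both peaks began upstream of the annotated start, and in 7 most of the interval lay outside exons of the mRNA. For Pum3, Pcdhb20 and Hcn4 no RefSeq start was found within 50 nt of the annotated one, on which their nt positions depend. The motif GGAC was found in 7 of the 12, all but Pum3, Ganab, Ankfy1, Pds5b and Zfp827, beside 67.1% of all members. Only exonic bases were searched, which in these genes were 34, 59, 29, 127 and 293 nt.

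**Figure D4:**
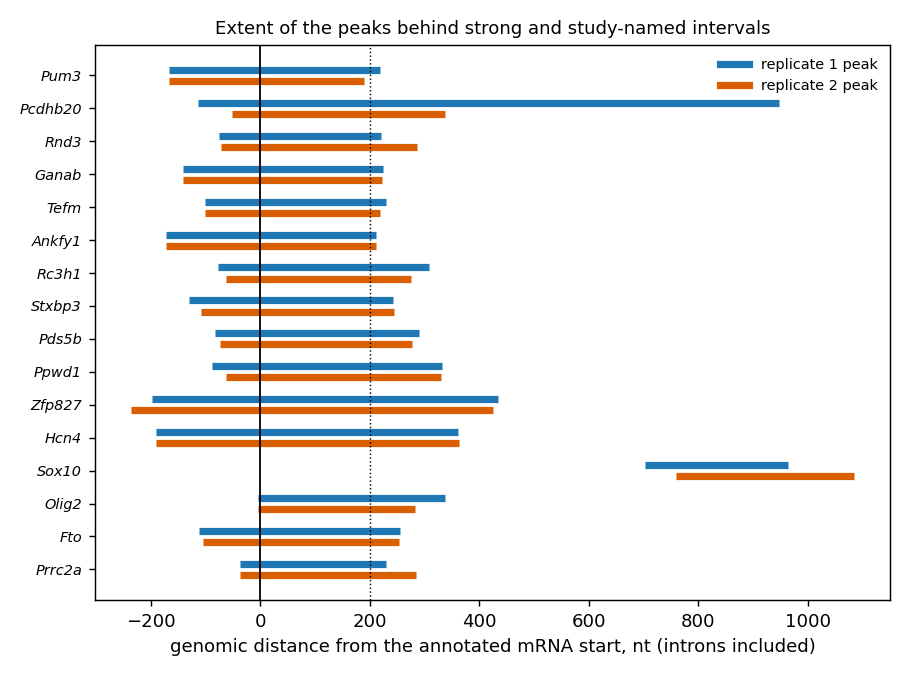
Extent of the peaks of replicate 1 (blue) and replicate 2 (orange) around the annotated mRNA start (solid line at 0; dotted line at 200) for the 12 strongest members and 4 genes of the study, as genomic distance in nt with upstream to the left. All 12 strong intervals start to the left of 0, from 75 to 198 nt upstream in replicate 1, and that of Sox10 lies more than 700 nt downstream in the genome because an intron precedes it.

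**Figure D5:**
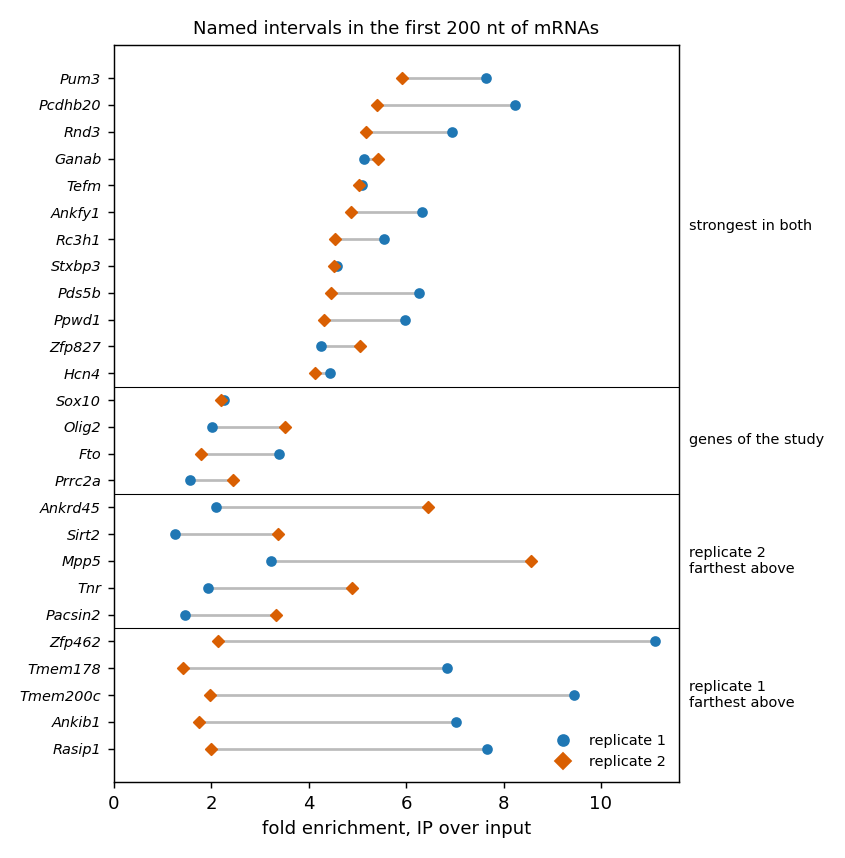
Fold enrichment (x axis) of the named members in replicate 1 (blue circles) and replicate 2 (orange diamonds), in 4 groups separated by lines. The lower value of the strongest group runs from 4.13 (Hcn4) to 5.91 (Pum3), and the pairs at the bottom reach from 2.13 to 11.1 in Zfp462.

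The members that the replicates measured most differently were of 2 kinds. Replicate 1 was farthest above replicate 2 in Zfp462, a zinc finger protein, with 11.1 against 2.13 (log2 ratio -2.38), the highest value of all members in replicate 1. Tmem200c with 9.45 against 1.98 and Tmem178 with 6.85 against 1.41, both transmembrane proteins, were next to it. Ankib1, a ubiquitin ligase of the RBR type, had 7.02 against 1.74, and Rasip1, a Ras-interacting protein of endothelial cells, 7.66 against 2.00. In these 5 genes the peak of replicate 1 was the longer one, with 961, 564, 990, 717 and 575 nt for Zfp462, Tmem200c, Tmem178, Ankib1 and Rasip1 against 268, 412, 478, 228 and 396 nt in replicate 2. The value of replicate 1 was given to a peak that reached beyond the shared bases. Where in the peak it arose is unknown, since the lists hold no summit. Whether peak length had a part in these ratios was not tested.

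Replicate 2 was farthest above replicate 1 in Ankrd45, an ankyrin-repeat protein, with 6.46 against 2.09 (log2 ratio 1.63). Sirt2, an NAD-dependent deacetylase that is abundant in oligodendrocytes, had 3.37 against 1.26 at the interval with its midpoint at nt 179. Mpp5, a scaffold of epithelial polarity complexes also known as Pals1, had 8.56 against 3.22, the highest value of all members in replicate 2. Tnr, the extracellular matrix protein tenascin-R, had 4.88 against 1.94, and Pacsin2, a membrane-bending F-BAR protein, 3.33 against 1.46. For Ankrd45, Sirt2, Mpp5, Tnr and Pacsin2 the peak lengths were 286, 363, 400, 268 and 200 nt in replicate 1 against 295, 440, 327, 281 and 343 nt in replicate 2, so that the peak of replicate 2 was the longer one in 4 of the 5. How often either replicate had the longer peak over all members was not counted. For Zfp462, Ankib1, Ankrd45 and Mpp5 no RefSeq start was found within 50 nt of the annotated one.

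In 1501 genes there was 1 interval at the start, in 111 genes 2 and in 5 genes 3. The genes with 3 were Fcho1, Hmgn2, Psmc1, Sirt2 and Szrd1. In Sirt2 the midpoints lay at nt 86, 125 and 179, with 1.64, 2.96 and 1.26 in replicate 1 and 2.39, 1.78 and 3.37 in replicate 2. The order of the Sirt2 intervals was thus opposite in the replicates. In Psmc1, an ATPase subunit of the proteasome cap, with midpoints at nt 54, 94 and 152, the values were 3.91, 3.46 and 2.69 in replicate 1 and 2.23, 1.85 and 1.38 in replicate 2. Fcho1, which acts at the start of clathrin-mediated endocytosis, and Szrd1 also had their highest value at the interval nearest to the mRNA start in both replicates. Fcho1 had 4.05, 3.44 and 2.18 in replicate 1 and 3.68, 2.87 and 2.36 in replicate 2. Such intervals lie within fewer than 200 nt of spliced RNA, so that 1 RNA fragment can contribute to more than 1 of them, and they are not independent.

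Of 9 genes chosen from those named in the study, 4 had an interval at the start (44.4%), beside 17.7% of all genes with a placed interval. The study names more genes than these 9, so the share depends on the choice. The list is short and no test was run on it. Olig2, the transcription factor that specifies the oligodendrocyte lineage, had 2.01 in replicate 1 and 3.52 in replicate 2, at nt 140 of a 5′ UTR of 252 nt. The m6A site of Olig2 that the study examined lies in the CDS, outside this interval. Sox10, a transcription factor of the same lineage, had 2.26 and 2.20 at nt 175, in exon 2. The values for Sox10 were nearly equal, and those for Olig2 were not. For both genes no RefSeq start was found within 50 nt of the annotated one. Fto, an m6A demethylase, had 3.39 and 1.78, with the midpoint at nt 75 in the CDS and no GGAC in the interval. Prrc2a itself had 1.56 and 2.44 at nt 97 of the 5′ UTR. All 4 genes had further intervals elsewhere on the mRNA, with 5 placed intervals in Sox10, 4 in Olig2, 3 in Fto and 8 in Prrc2a. Ranked from the highest down among the 1738 members, Fto stood best of the 4 in replicate 1, at 360, and Olig2 in replicate 2, at 76. Mbp, Pdgfra, Cspg4, Nes and Ythdf2 had their intervals outside the first 200 nt.

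Genes of the m6A machinery had such intervals in 6 of 23 genes with any placed interval (26.1%), beside 17.7% over all genes. They were the reader Ythdf3 with 2.69 and 1.88 in replicates 1 and 2, Fto, Prrc2a, its paralog Prrc2b with 3.20 and 1.54, the cap-adjacent m6Am methyltransferase Pcif1 with 1.65 and 1.56, and Hnrnpc with 2.12 and 1.45. Methyltransferase subunits Mettl3 and Mettl14 were not among them. In 5 of the 6 replicate 1 was the higher one, and Prrc2a was the exception. Replicate 2 was the higher one in only 28.8% of all members, so this order is not particular to the group.

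Among gene groups of the nervous system, shares above that of all genes were seen for synaptic vesicle and SNARE genes with 11 of 25 (44.0%) and for myelin genes with 8 of 19 (42.1%). The former included Nsf, the ATPase that takes SNARE complexes apart, with 5.49 and 2.14, and the syntaxin Stx1a with 2.47 and 2.42. Cplx1, a complexin that clamps vesicle fusion, had 3.36 and 2.41, and Syn1, a synapsin of synaptic vesicles, 2.82 and 2.06. The myelin genes were lower, with group medians of 1.96 and 2.00 in replicates 1 and 2 against 2.51 and 2.04 for all member genes. Mobp, a myelin-associated protein of oligodendrocytes, was the highest of them with 3.42 and 3.52, and Opalin followed with 2.60 and 2.30. Cnp, an enzyme of myelin, had 1.90 and 1.98. Mag, the adhesion molecule of the inner myelin layer, was the lowest with 1.38 in each replicate. Astrocyte genes had such intervals in 5 of 15, among them S100b with 2.76 and 2.66 and Glul, glutamine synthetase, with 2.93 and 2.24. Of the oligodendrocyte lineage transcription factors 3 of 19 did, Olig2, Sox10 and Id2.

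Other groups lay on both sides of the share of all genes. Proteasome genes had an interval at the start in 9 of 22 (40.9%), including the activator subunit Psme3 with 3.03 and 3.22 and the ATPase Psmc5 with 3.62 and 2.77. SR and hnRNP genes, which encode splicing regulators, had 9 of 26 (34.6%), led by Srsf6 with 3.33 and 2.39. Nuclear genes of respiratory complex I had 5 of 16 and histone modifier and sirtuin genes 14 of 57 (24.6%), among the latter Sirt5 with 5.35 and 3.03. Immediate early genes had 4 of 21, translation initiation factor genes 5 of 29, solute carrier genes 30 of 181, transmembrane protein (Tmem) genes 19 of 122 and ubiquitin protease (Usp) genes 6 of 42. Eif4e, which binds the cap, had 3.04 and 3.96. Lower shares were seen for potassium channel genes with 8 of 63, for ionotropic glutamate receptor genes with 2 of 15 and for GABA-A receptor genes with 1 of 10. Zinc finger (Zfp) genes had 25 of 283 (8.83%), Sox, Pou and Neurod genes 2 of 25, heat shock and chaperone genes 1 of 21, kinesin genes 1 of 22 and cytosolic ribosomal protein genes 1 of 15. Several of these lists hold few genes, no test was run on them, and the length of the 5′ UTR and the level of expression of the groups were not matched.

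A neighbouring gene was a possible source of signal in some members. The interval overlapped an exon of another gene in 184 (10.6%), on the opposite strand in 146 and on the same strand in 43. The peak lists give no strand, so that RNA from divergent neighbours cannot be told apart. Among the members named here this applied to Ppwd1, Tmem200c, Rasip1, Psmc5, Cplx1, Glul and the Sirt2 interval at nt 125. The peak of replicate 1 behind Ankib1 also lies behind the member of the neighbouring gene Krit1, so that its value of 7.02 stands for both genes.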

How the data were processed

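Sources and deposited files. Per the labels and the methods of the study, mRNA from mouse whole brain was fragmented, immunoprecipitated with an anti-m6A antibody and sequenced beside input RNA, with a TruSeq RNA kit by the labels. Whether reads were counted by strand is not given in the sources used here. The authors aligned reads to mm10 with TopHat (TopHat2 2.0.9 in the submitters' processing notes) and called peaks with MACS2 for each replicate against its input, keeping duplicate reads. The deposited lists give the position of each peak and its fold enrichment, the ratio of IP to input written by MACS2 on a linear scale. They hold no read count, strand, summit or p-value, so the depth is unknown and no depth-based interval or floor is given. The input samples had no file that was analysed here.

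Analysis. The lists held 38533 and 30134 peaks. Peaks sharing at least 1 bp were intersected, and midpoints were placed on 21511 representative mRNAs of GENCODE M21 (complete CDS, longest CDS per gene). Midpoints in exons of several genes were left out, and 11 midpoints in the first 200 nt lay too close to a stop codon. Python 3.11.15, pysam 0.24.0, scipy 1.17.1 and matplotlib 3.10.9 were used. The placement was tested on simulated data, and 400 of 400 simulated peaks were placed at the known position. Shares carry 95% Wilson intervals over intervals or genes, medians carry quartiles, and no test was made. Named genes were the 12 members with the highest lower value of both fold enrichments, 1 per gene, the 5 at each end of the replicate ratio, genes named in the study, up to 4 per gene list by the lower fold enrichment, and the 3 intervals on either side of the window's edge, the last and first in genome order among ties. Mag, Prrc2b, Hnrnpc, Krit1 and the 5 genes with 3 members were picked after their values were seen. Several lists were built by symbol prefix, and the list of genes named in the study holds only 9 of them. The members and lists were chosen with earlier results of these data known. Alternatives were the overlap, the representative mRNA, the window, intervals on exons of other genes, the chromosomes, the fold enrichment minimum, the motif and its window, and each replicate alone.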

Additional observations from a re-analysis of the deposited data

How the results depend on the processing

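Of 87 recomputed values for 8 quantities 59 stayed within 1.5 times the count reported (numbers of intervals and genes) or within the 95% interval of the value (shares and medians), and 28 did not. Only the log2 ratio and its difference from the other intervals could change sign, and neither did. The restriction to chromosomes 1 to 19 and X removed no member. Its values, counted among the 59, could therefore hardly move. With a window of 100 nt there were 666 intervals in 657 genes, 74.8% in the 5′ UTR and 62.9% with GGAC, at a GC content of 68.5% and a log2 replicate ratio of -0.24; with 300 nt the 5′ UTR share was 59.0% and the GC content 66.8%. Requiring both replicates to reach a fold enrichment of 2 left 758 intervals in 719 genes, 67.5% of them in the 5′ UTR, with 67.1% GC and a difference of 0.16 from the other intervals in the log2 ratio. A minimum of 1.5 was reached by 84.0%. With the longest spliced mRNA per gene 67.2% lay in the 5′ UTR. Taking each replicate alone gave 2265 to 2739 peaks in 2084 to 2521 genes, 61.6 to 64.7% in the 5′ UTR, 64.5 to 65.7% with GGAC and 67.1 to 67.2% GC. GGAC was found in 80.6% when introns and upstream bases were searched too and in 50.3% within 100 nt around the midpoint, GGACT in 21.2% and DRACH in 87.1%. Restriction to genes with a RefSeq start within 50 nt, chosen after seeing the data, left 1023 intervals in 953 genes with 61.8% in the 5′ UTR. No paired analysis was possible because the samples form a single IP group. The depth of the libraries was unknown, and how much it limits weak peaks was not tested.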
